A study of Mus musculus with 4 samples.

Results

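The oxysterol and cholesterol synthesis genes Ch25h, Srebf2, Insig1, Hmgcs1, Idi1 and Sqle were followed by symbol in single-cell libraries from the mouse brain vasculature, and all 6 were found among the 31053 genes of the feature table. They were chosen by their measured levels across cell classes and their differences between the conditions in these libraries, so those values are given as a description, with no test. Among the 8 classes with at least 20 cells in every library, Ch25h was found almost only in endothelial cells (ECs). There, both libraries from defeated mice lay above both libraries from unstressed mice, at 74.1 and 78.6 against 21.7 and 6.77 TMM CPM. CPM is the gene's share of all counts scaled to a fixed library total, and TMM CPM is also corrected for the makeup of libraries. The 5 genes of cholesterol synthesis and its control had counts in each of these 8 classes. Several of these levels did not exceed that of free RNA outside cells. The highest mean was in astrocytes or ependymal cells, and the ratios of the 5 genes between the conditions in ECs lay nearer to 1.

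Cells hold their cholesterol near a set level by feedback. When membrane sterol runs low, the transcription factor SREBP2, encoded by Srebf2, leaves the endoplasmic reticulum with its escort SCAP and switches on the synthesis genes, among them Hmgcs1, which makes HMG-CoA, Idi1, which isomerises isopentenyl diphosphate, and Sqle, which makes the first oxygenated sterol precursor from squalene. Insig1, itself a target of SREBP2, encodes an anchor that holds SCAP and SREBP2 back when sterol is plentiful. Ch25h encodes cholesterol 25-hydroxylase, whose product 25-hydroxycholesterol binds INSIG proteins and so restrains SREBP2, activates liver X receptors, and is the precursor of a ligand for the receptor GPR183 after the action of the enzyme encoded by Cyp7b1.

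The study compared young adult male wild-type C57BL/6 mice that had gone through chronic social defeat (CSD) for 14 days, a daily short encounter with an aggressive CD-1 mouse whose cage they shared across a divider, with mice kept for 14 days beside a CD-1 mouse that a fixed divider always kept apart from them (HC). Vessel-associated cells were enriched from perfused brain tissue with magnetic beads against CD31, an endothelial surface protein, after enzymatic and mechanical dissociation, and 3′ mRNA molecules were counted per cell as UMIs. There were 2 CSD and 2 HC libraries, each pooled from several mice of a condition, so the spread between libraries is that between pools and p-values measure only this spread. CD31 beads and collagenase were used for all libraries, and they select and may alter the cells. Whether they did so to the same degree in each library was not tested. No mouse line with an altered gene was used.

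The libraries held 27297599 to 30361474 UMIs, and 2553 to 4934 barcodes each passed as cells, 14415 in all, of which 13017 were assigned to 1 of 16 classes by markers. CSD 2 stood apart, with 32.6% of its UMIs in cells against 51.8% to 56.8% in the other libraries and with 84 choroid plexus cells against 341 to 781, and results are therefore given also without it. Between libraries, 20 cell barcodes were found in more than 1. The 8 EC genes used for gating included Cldn5, Flt1 and Itm2a, and 6 of the 8 were among the 10 leading genes of the EC class, whose summed level was 20862 to 25743 CPM over the 4 libraries.

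The upstream sequences of 3 members are shown because the marked motif of Ch25h differs from those that Srebf2 and Hmgcs1 share. RefSeq promoters of the mouse assembly GRCm38.p6, 250 bases before to 50 after the start, were at hand for 5 members. The 3 stretches below run from the window's first base to the base before the earliest annotated start, 5′ to 3′ on the gene's strand. Capitals mark the core of a sterol regulatory element, TCACNCCA, the CCAAT box, CCAAT, and the cAMP response element, TGACGTCA, each on either strand.
Ch25h, chr19:34475165-34475398, minus strand: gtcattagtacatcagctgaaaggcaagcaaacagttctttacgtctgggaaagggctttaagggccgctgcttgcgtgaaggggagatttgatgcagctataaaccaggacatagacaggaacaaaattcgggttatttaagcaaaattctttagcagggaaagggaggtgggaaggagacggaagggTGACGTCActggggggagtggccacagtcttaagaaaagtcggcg
Srebf2, chr15:82147019-82147180, plus strand: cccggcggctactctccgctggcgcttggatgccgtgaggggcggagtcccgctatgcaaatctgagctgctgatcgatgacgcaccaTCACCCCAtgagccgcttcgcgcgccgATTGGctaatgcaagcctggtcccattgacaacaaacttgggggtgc
Hmgcs1, chr13:119690101-119690350, plus strand: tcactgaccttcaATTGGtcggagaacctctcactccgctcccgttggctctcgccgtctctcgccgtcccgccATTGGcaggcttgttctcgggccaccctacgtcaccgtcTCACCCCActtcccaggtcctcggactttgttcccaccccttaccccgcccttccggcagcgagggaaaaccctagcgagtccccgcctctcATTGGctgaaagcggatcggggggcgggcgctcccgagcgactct

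In these windows of 300 bases, TCACNCCA occurred in Srebf2 and Hmgcs1, and in 4.34% of the 32544 distinct promoter sequences of the table. CCAAT occurred in 4 of the 5 members, all but Ch25h, and in 37.4% of all promoters. Hmgcs1 held it 4 times, Idi1 2 times, and Insig1 and Srebf2 1 time each. TGACGTCA was present in Ch25h alone of the 5 and in 1.80% of all promoters. Its first base lay 61 bases before the RefSeq start of the window. The stretch printed above ends further upstream, before an earlier annotated start. Insig1 also held the E-box CACGTG, found in 7.17% of all promoters. The GC box GGGCGG was present in the 4 members other than Ch25h and in 35.9% of all promoters. These are matches of letters, and no binding was measured here.

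In the GENCODE M21 annotation of GRCm38, Ch25h is a gene of 1 exon on chromosome 19 (34473778 to 34475164, minus strand). A non-coding gene that starts from the opposite strand, Gm26902, overlaps it. Srebf2, on chromosome 15 (82147181 to 82205379, plus strand), has up to 21 exons and holds the microRNA gene Mir33 and the unclassified gene Gm49502 on its own strand. Insig1 lies on chromosome 5 (28071363 to 28078662), Hmgcs1 and Idi1 on chromosome 13 (119690379 to 119708260 and 8885501 to 8892451), and Sqle on chromosome 15 (59315077 to 59331192), all on the plus strand.

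Ch25h was then compared across the cell classes. Levels across classes are given as CPM of the class total, the UMIs of the gene scaled to the UMIs of all cells of that class in a library, for the 8 classes with at least 20 cells in every library. In ECs, Ch25h stood at 71.7 and 77.5 CPM of the class total in the CSD libraries and at 22.1 and 6.99 in the HC libraries, from 155, 174, 44 and 14 UMIs. The mean over the 4 libraries was 44.6 ± 35.3 CPM (SD, n = 4) in ECs and at most 2.59 CPM in any other class, and the lowest EC library lay above the highest library of the class next in order, the arterial smooth muscle cells, at 5.87 CPM. Only 8 Ch25h UMIs were found in all microglia, 6 in smooth muscle cells, 4 in choroid plexus cells and 1 in pericytes, and none in astrocytes, ependymal cells or T cells. Neighbouring classes below ECs overlapped in their libraries.

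The share of cells with a Ch25h UMI was likewise small and endothelial. In ECs it was 4.53% (95% exact binomial interval 3.42 to 5.87) and 4.56% (3.43 to 5.92) in the CSD libraries. It was 2.36% (1.48 to 3.55) and 0.729% (0.389 to 1.24) in the HC libraries. Both CSD shares lay above both HC shares, and intervals and limits given here cover counting error only. In choroid plexus cells, an epithelium taken here as the class that should lack the gene, the share was 0.271%, 0.293% and 0.256% in CSD 1, HC 1 and HC 2, and 0 of 84 cells in CSD 2, which allows a share of up to 3.57%. In microglia it was 0.122%, 0.479% and 0.218% in CSD 1, CSD 2 and HC 1, and 0 of 1273 cells in HC 2, which allows up to 0.236%. Median depth was 868 to 1495 UMIs per EC, 1868 to 5006 per microglial cell and 11182 to 25506 per choroid plexus cell. In CSD 1, HC 1 and HC 2 the EC share lay above that of both classes at lower depth. In HC 1 and HC 2 the EC interval overlapped that of choroid plexus cells, which reached up to 1.62% and 0.922%. By share of cells, the order of ECs and choroid plexus cells is thus not resolved beyond counting error in the HC libraries. Choroid plexus cells were far deeper, and in CPM of the class total they held 0.121 in HC 1 and 0.229 in HC 2. ECs held 22.1 and 6.99 CPM there. The EC interval lay above that of microglia in HC 1, which reached 0.786%, and above the microglial limit of 0.236% in HC 2. In CSD 1 the intervals of ECs and choroid plexus cells lay apart. In CSD 2 the 84 choroid plexus cells are too few to tell by share of cells, since the EC interval of 3.43% to 5.92% reaches below their limit of 3.57%. In CPM of the class total, these deep cells held 0 UMIs, which allows up to 1.45 CPM. ECs of CSD 2 held 174 UMIs, at 77.5 CPM. With each EC thinned to 500 UMIs, which left out no cell, the EC shares were 1.34% (0.770 to 2.17) and 1.64% (0.987 to 2.54) in CSD. They were 0.750% (0.302 to 1.54) and 0.448% (0.194 to 0.882) in HC. These rest on 16, 19, 7 and 8 cells. The interval of CSD 1 overlapped those of both HC libraries, and that of CSD 2 overlapped that of HC 1.

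**Figure D1:**
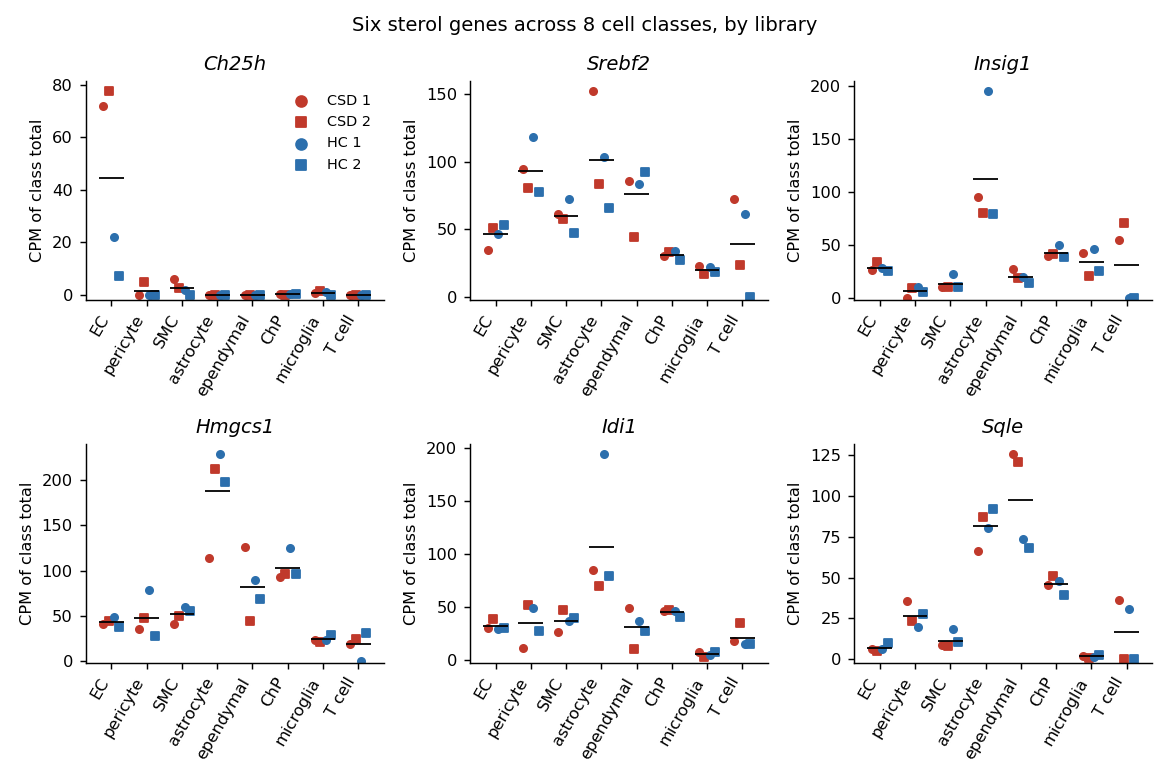
Levels of the 6 genes in 8 cell classes, in CPM of the class total, with 1 point per library (red CSD, blue HC, circles library 1, squares library 2) and a bar at the mean of the 4 libraries. Ch25h stands above 6.9 CPM in every EC library and at 5.87 CPM or less in every other class shown. The other 5 genes have counts in each of the 8 classes, some at levels not above free RNA.

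Within ECs, the level of Ch25h was highest in cells with venous markers. ECs were split by 8 markers each for the venous, arterial and capillary segments. Venous-marked ECs numbered 20 to 26 per library, 1.12% to 2.79% of ECs, and held 836 and 1160 CPM of Ch25h in the CSD libraries against 277 and 81.3 CPM in the HC libraries. These levels rest on 65, 54, 19 and 2 UMIs, and the last lies under the 3 counts, 122 CPM, below which a level is not resolved. A Ch25h UMI was found in 39.1% and 42.3% of venous-marked ECs in CSD and in 15.4% and 10.0% in HC, and the CSD libraries lay above the HC libraries in each case. The summed venous markers, which chose these cells, stood at 4846 and 10229 CPM in them in CSD and at 3598 and 3700 in HC, and the part of this in the Ch25h difference was not tested.

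The other segments showed the same order of libraries at lower levels. Capillary-marked ECs, 81.4% to 89.3% of all ECs, held 36.7 and 39.6 CPM of Ch25h in CSD and 11.2 and 5.32 CPM in HC, from 56, 77, 17 and 9 UMIs. Being many, they held 36.1% and 44.3% of all EC Ch25h UMIs in CSD and 38.6% and 64.3% in HC. Venous-marked ECs held 41.9% and 31.0% in CSD and 43.2% and 14.3% in HC. Arterial-marked ECs held 51.6 and 74.3 CPM in CSD and 14.5 and 23.4 CPM in HC, with only 3 UMIs in each HC library. ECs without a segment held 75.1 and 226 CPM in CSD, and 25.3 and 0 CPM in HC. In all 4 groups of ECs both CSD libraries therefore lay above both HC libraries.

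Counted by the number of venous markers detected, the ECs with none of the 8 held 14.0 and 14.4 CPM of Ch25h in CSD and 5.37 and 3.66 CPM in HC. Those with 3 or more held 254 and 314 CPM in CSD and 82.5 and 17.1 CPM in HC. The libraries of the conditions were separate at both ends and with 1 marker. In the order CSD 1, CSD 2, HC 1 and HC 2, ECs with no marker had 12, 12, 4 and 4 Ch25h UMIs. Those with 1 had 11, 17, 5 and 7, and those with 3 or more had 115, 142, 33 and 3. With 2 markers there were 17, 3, 2 and 0. The order of CSD 2 and HC 1 there rests on counts at or under 3 and is not resolved. Cells with more markers were also deeper, at a median of 2117 to 4555 UMIs with 3 or more markers against 806.5 to 1246.5 with none.

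**Figure D2:**
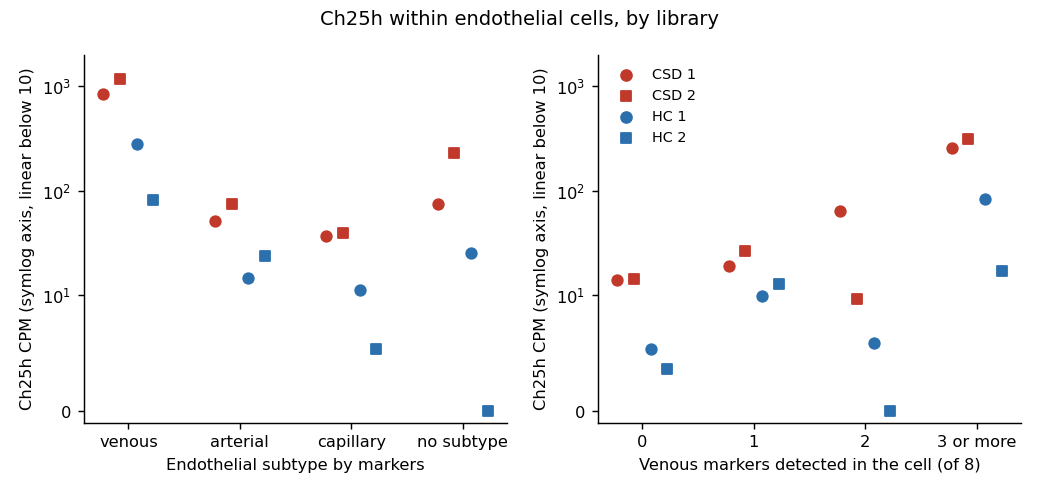
Ch25h in ECs, in CPM on an axis that is linear below 10 and logarithmic above, by the segment given by markers (left) and by the number of venous markers detected in a cell (right), with 1 point per library. In each of the 4 segment groups both CSD libraries lie above both HC libraries, and the venous-marked cells are highest, at 836 and 1160 CPM in CSD.

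A few cells carried a large share of the transcript. The 5 ECs richest in Ch25h held 49.7% and 51.7% of its EC UMIs in the CSD libraries and 54.5% and 42.9% in the HC libraries, with at most 25, 31, 11 and 2 UMIs in 1 cell. Without those 5 cells in each library, the EC level was 37.2 and 38.5 CPM in CSD and 10.4 and 4.04 CPM in HC, and the conditions remained apart. Cells with 3 or more Ch25h UMIs numbered 11 and 12 in the CSD libraries and 3 and 0 in the HC libraries.

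For CSD against HC within a class, levels were scaled by TMM, edgeR's correction for the makeup of libraries, and are called TMM CPM. In ECs, Ch25h averaged 76.4 ± 3.21 TMM CPM over the CSD libraries and 14.3 ± 10.6 over the HC libraries (SD, n = 2 per condition), a ratio of 5.36, and the ratio of single libraries ran from 3.41 to 11.6. The spread between the HC libraries was wide, and the ratio was 3.50 without HC 2 and 11.3 without HC 1. Without CSD 2, the library that stood apart, it was 5.20. Within the EC class, a shift in the makeup of the ECs and a change of level within cells cannot be told apart by this sum.

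Quality and stress measures were set beside this difference. Mitochondrial transcripts made up 7.31% and 8.67% of EC UMIs in CSD and 7.84% and 7.30% in HC, and these overlapped. The 8 immediate-early genes of the fixed list, which rise within minutes in stimulated or dissociated cells, summed to 13134 and 14957 CPM in CSD ECs and to 10205 and 10864 CPM in HC ECs, so both CSD libraries were higher. All 8 had a log2 difference above 0, with a median of 0.49 against 0.01 over all genes, but 0 of 8 passed edgeR's quasi-likelihood test with Benjamini-Hochberg adjustment, with 5 at an unadjusted p under 0.05. The part of this response in the Ch25h difference was not tested. The 8 choroid plexus markers summed to 422, 117, 424 and 560 CPM in the ECs of CSD 1, CSD 2, HC 1 and HC 2. CSD 1 and HC 1 thus stood nearly level, and CSD 2, the library with the fewest choroid plexus cells, was lowest. The part of this in the Ch25h difference was not tested.

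Srebf2 and Insig1, the sensing pair of the members, differed little in ECs. Srebf2 was at 35.9 and 51.5 TMM CPM in CSD and at 45.9 and 51.8 in HC, and the libraries overlapped, with a ratio of 0.894. Insig1 was at 27.2 and 33.9 TMM CPM in CSD and at 27.2 and 24.2 in HC. The CSD libraries of Insig1 lay above those of HC by less than 0.1 TMM CPM at the nearest pair, and the ratio of means was 1.19.

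The synthesis enzymes gave both directions in ECs. Hmgcs1 was at 41.6 and 45.2 TMM CPM in CSD and at 47.4 and 35.8 in HC, which overlapped. Idi1 was at 31.6 and 39.8 TMM CPM in CSD and at 29.1 and 30.002 in HC, higher in both CSD libraries, with a ratio of 1.21. Sqle was at 6.21 and 4.97 TMM CPM in CSD and at 6.42 and 9.68 in HC, lower in both CSD libraries, from 11 to 20 UMIs a library. In all, 4 of the 6 members had CSD and HC libraries that did not overlap in ECs, 3 above and 1 below, where 37% of all 10291 genes tested in ECs did the same, 19.3% above and 17.8% below. Nothing is read from this count, since the same contrast chose the members. Only for Ch25h were the libraries separated by more than 3-fold.

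**Figure D3:**
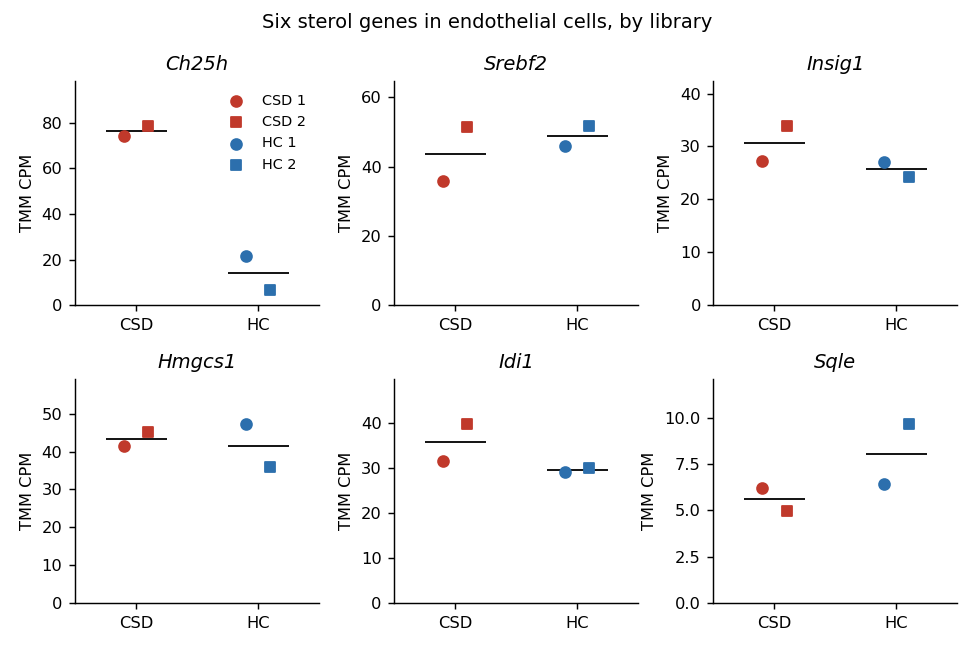
TMM CPM of the 6 genes in ECs, with 1 point per library and a bar at the mean of the 2 libraries of a condition. Ch25h has means of 76.4 and 14.3 TMM CPM in CSD and HC, and the bars of the other 5 genes lie close to each other, from a ratio of 0.695 for Sqle to 1.21 for Idi1.

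Ch25h passed the filter on low counts in ECs alone among the 6 classes tested. In arterial smooth muscle cells it had 4 and 1 UMIs in CSD and 1 and 0 in HC, at 5.83, 2.61, 1.88 and 0 TMM CPM, so the CSD libraries were higher there too, at or near the 3 counts below which a level is not resolved. Barcodes with at most 100 UMIs, which hold no cell, had the same order by condition for Ch25h. Their level lay above that of smooth muscle cells in 2 of 4 libraries. The other members were then compared in the other classes. In microglia, 1 of the 4 members that passed had separate libraries, against 21.9% of all genes. It was Hmgcs1, at 21.95 and 21.9 TMM CPM in CSD and 22.2 and 29.0 in HC. In choroid plexus cells, where depth was greatest, 0 of 5 did, against 28.6%. Hmgcs1 there was at 90.5 and 98.8 TMM CPM in CSD and 124 and 97.3 in HC. In pericytes 0 of 1 did, against 34.4%, and in astrocytes 0 of 1, against 25.2%. In arterial smooth muscle cells 1 of 3 did, against 29.9%, again Hmgcs1, at 40.8 and 49.6 TMM CPM in CSD and 60.2 and 55.3 in HC.

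The 5 synthesis and sensing genes had UMIs in each of the 8 classes, in differing orders. In T cells these came to only 5 UMIs of Hmgcs1 and 4 of Sqle, with 0 CPM in the lowest library. Among these 8 classes, Hmgcs1 was highest in astrocytes, at 188 ± 51.3 CPM of the class total (SD, n = 4), then in choroid plexus cells, at 103 ± 15.2, and ependymal cells, at 82.0 ± 34.6. These neighbours overlapped in their libraries. ECs, at 42.5 ± 4.90 CPM of the class total, lay apart from microglia, at 23.8 ± 3.46.

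Idi1 and Insig1 were also highest in astrocytes, at 107 ± 58.7 and 112 ± 55.5 CPM of the class total, apart from the choroid plexus cells next in order at 45.4 ± 3.098 and 42.4 ± 4.90. HC 1 alone set much of the astrocyte spread, with 195 CPM for each gene from 17 UMIs. Idi1 was lowest in microglia, at 6.15 ± 2.43, and Insig1 in pericytes, at 6.22 ± 4.58 from 4 UMIs in all.

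Sqle was highest in ependymal cells, at 97.3 ± 30.3 CPM of the class total, and astrocytes, at 81.6 ± 11.2, which overlapped. Choroid plexus cells followed at 46.0 ± 5.01, apart from both neighbours. ECs, at 6.86 ± 2.20, and microglia, at 1.73 ± 0.707, were lowest and apart from each other.

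Srebf2 had the flattest order, from astrocytes at 101 ± 37.0 and pericytes at 92.8 ± 18.7 CPM of the class total to microglia at 20.2 ± 3.01. Choroid plexus cells, high in Hmgcs1 and Sqle, were at only 31.4 ± 3.03 for Srebf2.

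Free RNA limits how low a level can be read. Barcodes with at most 100 UMIs, which hold no cell, carried 81.3 to 88.1 CPM of Hmgcs1, 31.6 to 39.5 of Idi1, 27.8 to 34.1 of Insig1, 23.4 to 27.7 of Sqle and 43.7 to 61.6 of Srebf2. It lay above the EC level of the same library in 4 of 4 libraries for Hmgcs1 and Sqle and in 3 of 4 for Idi1, Insig1 and Srebf2. It lay above the microglial level in 4 of 4 libraries for Hmgcs1, Idi1, Sqle and Srebf2 and in 2 of 4 for Insig1. In those libraries such levels cannot be told apart from free RNA by their size. For Ch25h it was 3.20 and 7.71 CPM in CSD and 1.46 and 0.259 in HC, below the EC level of the same library in each case.

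The genes most like each member were sought over the 32 sums of 8 classes in 4 libraries, by Pearson's r of log2(CPM + 10). These points share libraries and classes, and r is a description. Ch25h was most like Tmem252, with r = 0.956, Galnt15, with r = 0.897, and Vwf, with r = 0.881, the gene of von Willebrand factor and 1 of the venous markers. In ECs, Tmem252 stood at 609 and 728 CPM of the class total in CSD and at 148 and 118 in HC. Its libraries had the order of Ch25h by condition. These EC sums were among the 32 by which Tmem252 was picked, so nothing is read from that order. Vwf was at 165 and 210 CPM in CSD and 169 and 115 in HC and overlapped.

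The other members were most like different genes. For Sqle these were Ntrk2 (r = 0.895), Dync2h1 (0.885) and Id4 (0.873), and for Hmgcs1 Ccdc136 (0.869), Prodh (0.865) and Peg3 (0.856). Idi1 was most like Ahcyl1 (0.8002), Plxnb1 (0.795) and Hmgcs1 itself (0.787). Insig1 was most like Pcyt2 (0.770), Fgfrl1 (0.753) and Bmp7 (0.746), and Srebf2 like Pitpnm2 (0.856), Trpm7 (0.842) and Ttc3 (0.825). The r of Ch25h with the other 5 members lay between -0.365 and 0.014.

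The rest of the pathway was tested in the same fit, in 3 lists of 44 genes that hold none of the members. Across all genes, edgeR's quasi-likelihood test with Benjamini-Hochberg adjustment called 5 genes, 0.0486% of 10291, in ECs, counted in either direction. Of the sterol-list genes, 0 of 35 that passed the filter were called in ECs, with 1 at an unadjusted p under 0.05, and DESeq2 also called 0. Of 16 synthesis enzymes tested in ECs, 7 had a log2 difference above 0, with a median of -0.10 against 0.01 over all genes. For 11 genes of sensing and uptake these were 8 and 0.05, and for 8 genes of oxysterol metabolism, sensing and efflux 5 and 0.08.

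Cyp51, which demethylates lanosterol, was the gene at an unadjusted p under 0.05 in ECs, at 26.8 and 25.3 TMM CPM in CSD and 16.3 and 15.97 in HC, a log2 difference of 0.69 ± 0.22 (SE) with an edgeR adjusted p of 0.510. Both CSD libraries were above both HC libraries, and it did not pass the test.

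**Figure D4:**
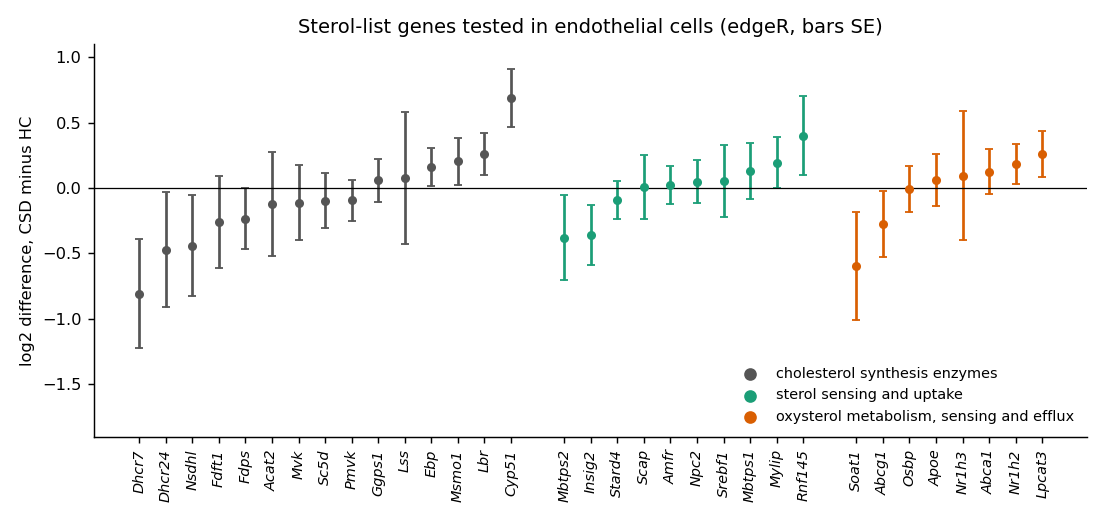
Log2 difference of CSD minus HC in ECs for 33 of the 35 genes of the 3 sterol lists that passed the filter, with edgeR's standard error as bars, ordered within each list. The values lie on both sides of 0, Cyp51 has the highest at 0.69, and none passed the adjusted threshold.

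Gpr183 and Cyp7b1 were low in ECs, whereas Abca1 was present there. Gpr183, the receptor for its dihydroxylated product, was a microglial gene here, at 172 and 162 TMM CPM in CSD and 217 and 269 in HC. Both CSD libraries were lower, but the log2 difference of -0.54 ± 0.25 did not pass (edgeR adjusted p = 0.99996). In ECs Gpr183 was at 0.956 to 2.90 TMM CPM and in choroid plexus cells at 0. Its level in border-associated macrophages, monocytes, T cells and B cells was not computed.

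Cyp7b1, which acts next on 25-hydroxycholesterol, was at 27.9 to 104 TMM CPM in pericytes and at 0.968 to 4.78 in ECs, below the filter in ECs. Abca1, the cholesterol exporter switched on by liver X receptors, was at 50.2 and 62.8 TMM CPM in CSD ECs and 50.9 and 52.7 in HC ECs, which overlapped, with a log2 difference of 0.12 ± 0.17. In microglia Abca1 was at 173 and 179 TMM CPM in CSD and 152 and 148 in HC, and in astrocytes at 255 and 184 against 164 and 121. Its adjusted p was above 0.9 in all 3 classes.

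No sterol-list gene was called in the other classes tested. By edgeR's test, 0 of 34 list genes were called in microglia, 0 of 41 in choroid plexus cells, 0 of 11 in pericytes, 0 of 17 in arterial smooth muscle cells and 0 of 7 in astrocytes, and by DESeq2 also 0 in each. Genome-wide calls were 0 in microglia, 14 (0.123%) in choroid plexus cells, 1 (0.0375%) in pericytes, 0 in smooth muscle cells and 4 (0.281%) in astrocytes. At an unadjusted p under 0.05 stood 1 list gene in microglia, Fdft1, 1 in pericytes, Nr1h3, and 2 in smooth muscle cells, among them Msmo1, with 0 in choroid plexus cells and astrocytes. Msmo1, an enzyme of the same pathway, was at 17.5 and 28.7 TMM CPM in CSD smooth muscle cells and 33.9 and 52.7 in HC, a log2 difference of -0.94 ± 0.41 (edgeR adjusted p = 0.9995). Of the 7 synthesis enzymes tested in smooth muscle cells, 1 had a log2 difference above 0 and 4 had both CSD libraries below both HC libraries, with a median of -0.49 against a median near 0 over all genes, and 29.9% of all genes had separate libraries there. In microglia 4 of 15 synthesis enzymes had a log2 difference above 0, with a median of -0.12, and in choroid plexus cells 6 of 19, with a median of -0.03.

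The levels in ECs were then compared under other settings. In the 6 alternatives that keep all 4 libraries and can move a level, both CSD libraries lay above both HC libraries in Ch25h in all 6, with a ratio of 5.13 to 5.64. With each library left out in turn the ratio was 3.50 to 11.3. The remaining libraries then stay apart by construction, since all 4 were apart before, so nothing is read from that. The other members were less steady. Over the same 6 alternatives Insig1 was higher in CSD in 4 and Idi1 in 3, Sqle was lower in 4, and Hmgcs1 and Srebf2 overlapped in 6 each.

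**Figure D5:**
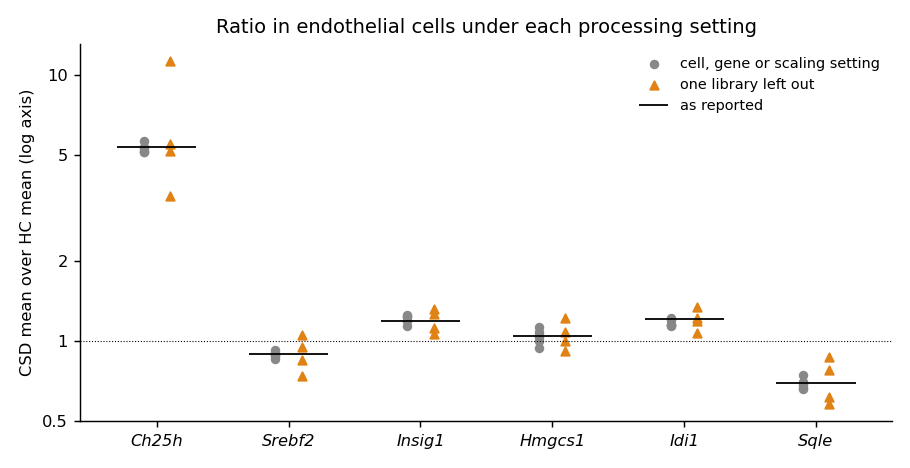
Ratio of the CSD mean to the HC mean of TMM CPM (or of the scaling named) in ECs on a log axis, for each of the 6 genes under each alternative that can move a level (grey, cell filters, gene filter and scaling; orange triangles, 1 library left out), with a bar at the value reported. Ch25h stays between 3.50 and 11.3, and the other 5 genes lie between 0.579 and 1.34.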

How the data were processed

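The counts that the authors deposited are unnormalized UMI counts of every barcode, made with Cell Ranger (version 4.0 in the processing notes, 3.1.0 in the matrix headers) on GRCm38, 1 table per library. Barcodes with at least 500 UMIs, 250 genes and at most 25% mitochondrial UMIs were kept as cells. A cell joined the class with the most of its 8 markers detected, given at least 3 markers and a lead of 2 over every other class, and EC segments needed 2 markers and a lead of 1. No doublet caller was run, and the lead left out cells with markers of several classes. Of the 13017 cells assigned, 7.11% stood at the least lead allowed. Names of classes were rebuilt and may differ from those of the study.

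Counts were summed per library and class and tested with edgeR 4.0.16 (filterByExpr, TMM, glmQLFit, glmQLFTest, two-sided, threshold 0.05) over all genes of the class. The study tested single cells, which are not replicates. DESeq2 1.42.0, other filters, gates and scalings, a replicate block and leaving out each library were alternatives. The test was checked on simulated counts. Members, lists and markers were chosen with earlier results of these data known. Named genes were the members, called list genes, Cyp7b1, Gpr183 and Abca1, and the 3 genes most like each member over classes, among genes with at least 10 CPM on average. Genes added after their values were seen are Cyp51, Fdft1, Nr1h3, Msmo1 and Insig2, and the splits by venous markers and by the richest 5 cells were also chosen then. A further 2 genes named by the rule are not reported here.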

Additional observations from a re-analysis of the deposited data

Results flagged for a closer look

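Insig1 had opposite orders of the libraries in 2 classes. Both CSD libraries lay above both HC libraries in ECs, with a ratio of 1.19, and below them in arterial smooth muscle cells, with a ratio of 0.623 from 7, 4, 12 and 4 UMIs, under the filter on low counts. The nearest pair there, CSD 2 and HC 2, had 4 UMIs each, at 10.4 and 10.5 TMM CPM, and without the gene filter the libraries overlapped, with a ratio of 0.633. The difference between the classes was not tested.

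For Ch25h and Hmgcs1, both CSD libraries lay above both HC libraries in barcodes with at most 100 UMIs, which no comparison used. The other members overlapped there. The share of all genes with separate libraries was not computed in these barcodes, so nothing is read from the order. The nearest pair of Hmgcs1, CSD 2 and HC 1, stood at 85.9 and 85.3 CPM. The ratio of mean CPM was 6.34 for Ch25h, from 12, 27, 6 and 1 UMIs, and 1.04 for Hmgcs1.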

How the results depend on the processing

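The count of sterol-list genes called was 0 in all 6 classes under every alternative but one. Leaving out each library gave 0 to 1 in ECs, the 1 being Insig2, lower in CSD without CSD 1 (log2 difference -0.69, edgeR adjusted p = 0.0290), a gene at 47.8, 31.6, 44.9 and 56.6 TMM CPM in CSD 1, CSD 2, HC 1 and HC 2. The library number is not stated to pair pools, and the correlation of deviations between like numbers was 0.05 in ECs and -0.02 to 0.53 in the other classes. With the replicate block, 0 sterol-list genes were called in each class. The block and DESeq2 gave 66 and 56 genes of all genes in ECs against 5, and 44 and 5 in choroid plexus cells against 14. Leaving out a library gave 5 to 553 in ECs, the highest without CSD 1.

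The number of members with separate libraries was less stable. In ECs it was 4, 3 with DESeq2 size factors, and 2 with library totals, at least 1000 UMIs per cell or a marker lead of 3, with 4 to 6 when a library was left out. In microglia it was 1, and 0 with DESeq2 size factors or a marker lead of 3, with 1 to 4 when a library was left out. In choroid plexus cells it was 0, and 2 with at most 10% mitochondrial UMIs or a filter of 0.8 on log10 genes per log10 UMIs, with 2 to 3 when a library was left out. In smooth muscle cells it was 1, and 0 with at most 10% mitochondrial UMIs, with 2 to 4 when a library was left out. In astrocytes it was 0, and 2 with at least 1000 UMIs, with 1 to 3 when a library was left out, and in pericytes 0 to 1. With a library left out, 1 library stands against 2, and separation is then more frequent by construction. For other changes the cause was not tested. No member passed the filter in pericytes with at least 1000 UMIs or a lead of 3, or in astrocytes with at most 10% mitochondrial UMIs. Pericytes and astrocytes, at 48 to 192 cells a library, are limited by depth.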

Other observations

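In ependymal cells, a class of 29 to 66 cells a library in which no comparison was tested, Sqle stood at 126 and 121 CPM of the class total in CSD and at 74.0 and 68.5 in HC, from 28, 33, 38 and 20 UMIs, and both CSD libraries lay above both HC libraries. In the same cells Hmgcs1 was at 126 and 44.0 CPM in CSD and at 89.5 and 68.5 in HC, which overlapped. Idi1, Insig1 and Srebf2 overlapped there too. The share of all genes with separate libraries was not computed in ependymal cells. It was 21.9% to 37% in the classes tested, so nothing is read from the order of Sqle. Among cells given no class, Ch25h was at 16.8 and 8.03 CPM in CSD and at 10.2 and 7.22 in HC, which overlapped.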
